A study of Mus musculus with 12 samples.

Results

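Cultured fibro/adipogenic progenitors (FAPs), the mesenchymal cells of skeletal muscle that can form fibroblasts and adipocytes, were examined for 8 genes of the kallikrein-kinin and renin-angiotensin systems: Kng1, Kng2, Bdkrb1, Bdkrb2, Agt, Agtr1a, Ace and Enpep. Each of the 8 genes was measured by 1 transcript cluster (a set of array probes summarised as 1 value) whose only platform symbol is that gene, out of 21789 clusters with a single symbol that stand for 19938 genes. With the replicate number as a term of the fit, 21 clusters passed for PDGF-AA averaged over AMOs (0.0964% of clusters, 0.0688% as lower ones). Kng1 was 1 of them. Its adjusted p in limma was 0.041 with that term and 0.66 without it. Most fits with that term that left out 1 array did not keep the call. The set was chosen by that PDGF-AA change of Kng1 and by membership of these systems. For that reason the PDGF-AA changes of the 8 genes are described without a test. P-values for differences of that change between AMOs are printed as a description too. Since earlier results of these data were known when the genes were chosen, values of Kng2 between AMOs may not be independent of that choice.

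FAPs came from uninjured hindlimb muscle of male C57/Bl6 mice aged 8 to 12 weeks, with wild-type alleles in every group. After 2.5 days of growth the cells were transfected with 10 µM of an antisense oligonucleotide (AMO), and 48 hours later transfected again, with or without PDGF-AA, for 48 hours more. The AMOs were a control, a pA AMO against the intronic polyadenylation site of Pdgfra, and a 5'ss AMO against an intronic 5' splice site of Pdgfra. PDGF-AA, a ligand of the receptor PDGFRα, was given at 0 or 50 uM as labelled, a dose that was not checked here. Each of the 6 groups had 2 arrays, replicate 1 and replicate 2, and each replicate pooled cells of 2 mice. All groups therefore share 2 rounds of transfection, and a group without PDGF-AA is not an untreated culture.

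Kininogens are secreted precursor proteins, made mainly by the liver, from which kallikreins release bradykinin-type peptides. Those peptides act on the B1 receptor (Bdkrb1), which is induced by tissue injury, and on the constitutive B2 receptor (Bdkrb2). Angiotensinogen (Agt) is cut by renin to angiotensin I, and angiotensin-converting enzyme (Ace) turns this into angiotensin II, which acts on the receptor Agtr1a in vessels, kidney and fibroblasts. Ace also breaks down bradykinin, which joins both systems, and aminopeptidase A (Enpep) removes the N-terminal aspartate of angiotensin II.

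Promoter sequence is shown for Kng2, the gene on which the AMO result turns, and for Agt and Enpep, whose values moved with those of Kng1. RefSeq start sites of build GRCm38.p6 were matched by symbol for 5 of the 8 genes. Each window holds the 250 bases before the start, 5′ to 3′ on the gene's own strand. Capitals mark any match, on either strand, to the TATA box motif TATAAA, the CCAAT box motif CCAAT, the hypoxia-response core ACGTG and the AP-1 motif TGACTCA, and no matches overlap in these windows. The Kng2 window is chr16:23029102-23029351, the Agt window chr8:124569707-124569956 and the Enpep window chr3:129332750-129332999, all on the minus strand.
Kng2: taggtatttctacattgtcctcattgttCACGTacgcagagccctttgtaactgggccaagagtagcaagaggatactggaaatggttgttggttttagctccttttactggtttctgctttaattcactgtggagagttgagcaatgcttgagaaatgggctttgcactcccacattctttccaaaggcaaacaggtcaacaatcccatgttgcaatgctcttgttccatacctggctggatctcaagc
Agt: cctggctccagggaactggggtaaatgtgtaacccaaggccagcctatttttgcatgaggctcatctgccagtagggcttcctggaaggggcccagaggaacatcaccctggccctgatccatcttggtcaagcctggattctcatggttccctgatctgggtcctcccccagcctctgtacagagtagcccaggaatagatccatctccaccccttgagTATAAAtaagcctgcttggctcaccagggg
Enpep: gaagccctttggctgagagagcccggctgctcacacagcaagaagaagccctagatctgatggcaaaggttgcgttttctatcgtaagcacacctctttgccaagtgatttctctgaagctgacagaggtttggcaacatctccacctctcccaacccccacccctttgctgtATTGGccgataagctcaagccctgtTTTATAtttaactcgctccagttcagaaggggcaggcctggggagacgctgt
The Kng2 window held ACGTG on the reverse strand and no TATAAA. The Agt window held TATAAA on its own strand, with its first base at -30 from the start. The Enpep window held TATAAA and CCAAT on the reverse strand, with first bases at -52 and -77. Over 32851 promoter windows of this length, 12.4% held the first motif, 33.8% the second, 16.6% the third and 4.5% the fourth. A match is a description of letters and not of a bound site.

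Values on the 12 arrays, log2 expression made by the authors, ran from 1.36 to 14.10, with array medians of 6.04 to 6.23. Pdgfra, whose transcripts 2 of the AMOs address, lay between 12.72 and 12.92 on all arrays, and this cluster does not separate full-length from truncated transcripts. All 9 measured FAP and fibroblast markers of a list of 10 lay above the 40 percent mark of the named clusters (log2 6.10), and so did all 8 genes described here. None of the 7 measured hepatocyte markers did, and their mean stayed at 4.85 to 5.21 on every array. Of the markers of other cells, 8 of 9 myogenic, 6 of 10 smooth muscle and pericyte, 5 of 7 adipocyte, 4 of 9 endothelial, 3 of 8 leukocyte and 0 of 6 mast cell genes lay above that mark. Replicate 2 was higher than replicate 1 in all 6 groups for Kng1, Kng2, Agt, Agtr1a, Ace and Enpep, by a mean of 0.30 for Kng1 to 0.53 for Enpep on the log2 scale. Across the whole table same-numbered arrays also deviated together. Results are therefore given from the limma fit on all 12 arrays, and beside it from the same fit with the replicate number as a block where that changes a call.

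Kng2 was lower on every array with 5'ss AMO than on every array with control or pA AMO. With control AMO its log2 values in replicates 1 and 2 were 9.73 and 9.93 without PDGF-AA and 9.39 and 9.85 with it. With pA AMO they were 9.46 and 9.87 without PDGF-AA and 9.33 and 9.89 with it. With 5'ss AMO they were 8.22 and 8.66 without PDGF-AA and 8.37 and 8.61 with it. The 4 arrays with 5'ss AMO thus lay between 8.22 and 8.66 and the other 8 between 9.33 and 9.93, with no overlap. Within each replicate number the difference from control AMO was -1.51 and -1.27 without PDGF-AA and -1.02 and -1.24 with it.

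**Figure D1:**
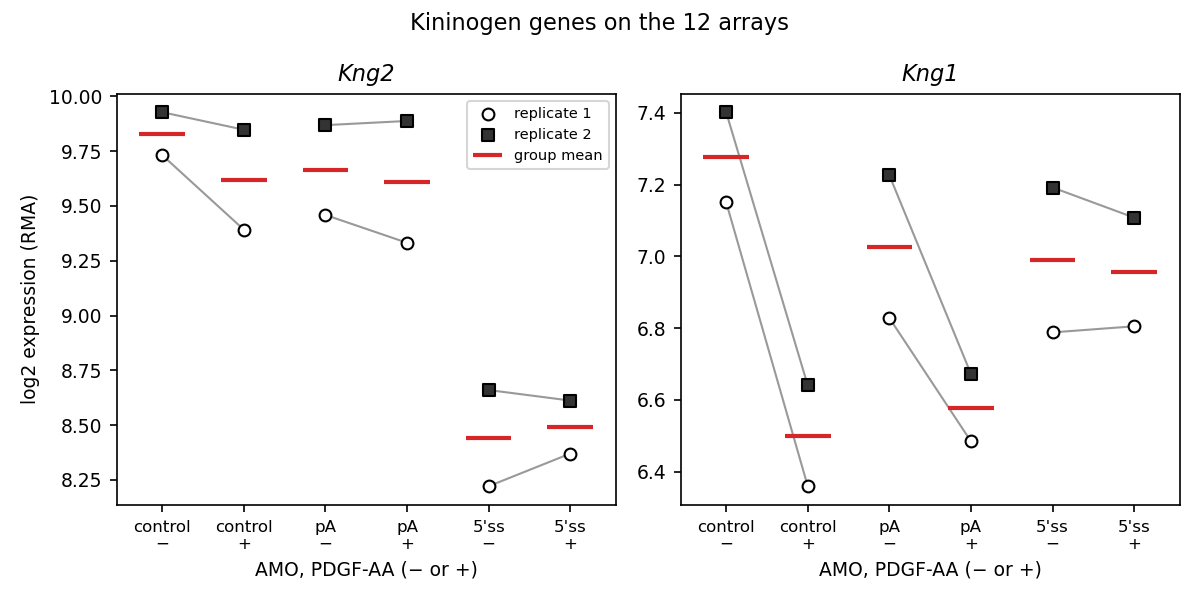
Log2 expression of Kng2 and Kng1 (vertical axes, separate scales) in the 6 groups of AMO without (−) or with (+) PDGF-AA; circles are replicate 1, squares replicate 2, red bars group means, and grey lines join arrays of 1 replicate number within an AMO. Kng2 lies at 8.22 to 8.66 with 5'ss AMO and at 9.33 to 9.93 otherwise, while Kng1 is lower with PDGF-AA under control and pA AMO.

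Averaged over PDGF-AA, Kng2 was at -1.26 with 5'ss AMO against control AMO (SE 0.166, 95% interval -1.63 to -0.89, 4 arrays against 4), a ratio of 0.418 on the linear scale. This was the lowest change of all 21789 clusters. By p-value it came second among them, and its adjusted p in limma was 0.0988, which did not pass the threshold of 0.05. In that fit 0 clusters passed (0% of 21789), and 1046 had an unadjusted p under 0.05. With the replicate block Kng2 fell, with the same change, an SE of 0.0685 and an adjusted p of 0.000287 in limma, the smallest of all clusters. The block passed 3 clusters (0.0138%), of which 1 was lower (0.00459%) and 2 higher (0.00918%). That call was kept without each of the 12 arrays in turn, at adjusted p from 0.00071 to 0.0055 in limma. Over the alternatives run, block included, the adjusted p of Kng2 ranged from 0.000287 to 0.704 in limma. The arrays of the compared sides did not overlap for 2.97% of clusters, and for 1.71% with 5'ss AMO as the lower side. Of the 8 genes only Kng2 met that.

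Against 5'ss AMO, Kng2 was higher with pA AMO by 1.17 (SE 0.166, 95% interval 0.80 to 1.54), a ratio of 2.25. Its p was the smallest of all clusters, with an adjusted p of 0.266 in limma, where 0 clusters passed (0%) and 756 had an unadjusted p under 0.05. With the replicate block it rose (adjusted p = 0.000551 in limma), 1 of 6 clusters that passed (0.0275%) and the only one that was higher (0.00459%). Without single arrays, block kept, its adjusted p was 0.00139 to 0.0107 in limma, and over the alternatives of the fit 0.000551 to 1.0. This comparison uses the same 5'ss arrays as the one against control AMO and does not stand apart from it. Between pA and control AMO, Kng2 differed by -0.088 (SE 0.166, 95% interval -0.46 to 0.28). There limma passed 0 clusters (0%), with and without the block, and 708 had an unadjusted p under 0.05 without it. None of the 8 genes was free of overlap between pA and control AMO, where 2.65% of clusters were, 0.945% with pA AMO as the higher side. The 5'ss change of Kng2 stood at both doses, and its PDGF-AA change with 5'ss AMO differed from that with control AMO by 0.26 (SE 0.331, adjusted p = 1.0 in limma).

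**Figure D2:**
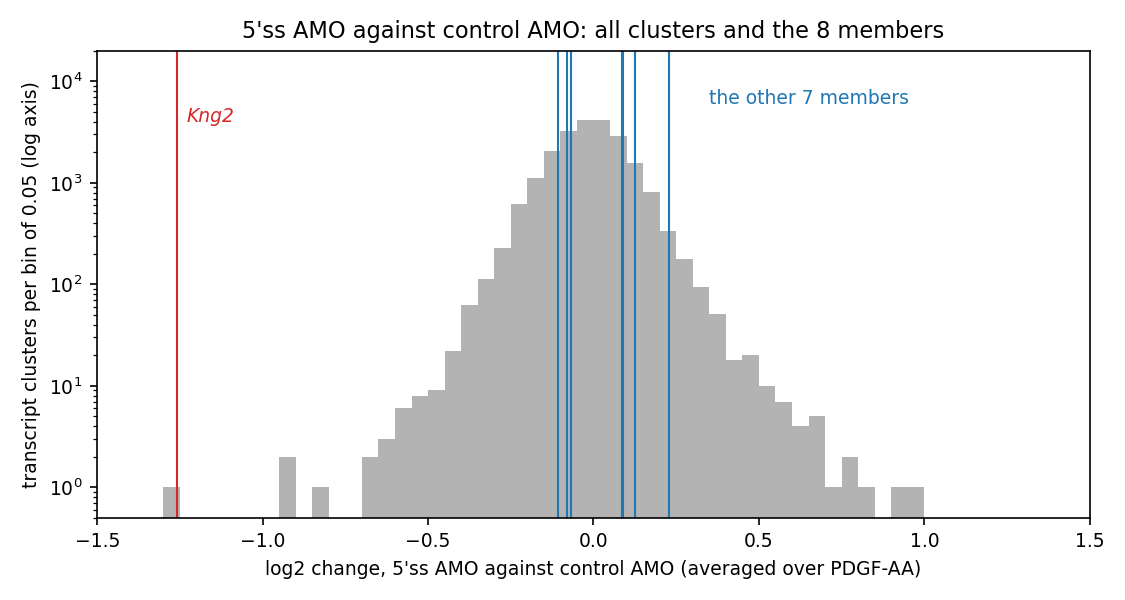
Distribution of the log2 change with 5'ss AMO against control AMO, averaged over PDGF-AA, for all named clusters in bins of 0.05 (horizontal axis; the count of clusters on the vertical axis is on a log scale). Vertical lines mark the 8 genes: Kng2 at -1.26 is the lowest of 21789 clusters, and the other 7 lie between -0.11 and 0.23.

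Kng1, the paralog of Kng2, did not share this change. Its difference between 5'ss and control AMO was 0.085 (SE 0.134, 95% interval -0.21 to 0.38, adjusted p = 0.995 in limma). Over the 12 arrays the log2 values of Kng1 and Kng2 had a Pearson r of 0.06, which is a description over arrays that share replicate effects. The paralogs are nearly identical in sequence, and how far probes of either cluster read the other gene was not tested. In RefSeq's order of protein-coding genes Kng1 is the next gene after Kng2. Of the nearest other genes, 4 on each side of the pair, all 8 were measured, and they were looked up after the values of Kng2 were seen. Their changes with 5'ss AMO lay between -0.21 for Fetub, a secreted protease inhibitor related to the kininogens, and 0.69 for the adipokine Adipoq. Ahsg, another member of that inhibitor family, was at 0.35. None of these neighbours passed without the block (adjusted p = 0.995 each in limma). In that fit 0 of 21789 clusters passed, and Kng2 did not either. Not passing therefore does not set the neighbours apart from Kng2. The AMO sequences were not used here, so whether the 5'ss AMO matches Kng2 was not tested. The defining hepatocyte markers lay below the 40 percent mark on these arrays. The mean of the adipocyte markers overlapped between AMOs, at 6.37 to 7.98 with 5'ss AMO and 6.01 to 7.34 with control AMO. In replicate 1 with PDGF-AA it was 7.98 with 5'ss AMO and 6.01 with control AMO. Whether the content of other cells had a part in the Kng2 change was not tested.

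Kng1 was lower with PDGF-AA under control and pA AMO. With control AMO its log2 values in replicates 1 and 2 were 7.15 and 7.40 without PDGF-AA and 6.36 and 6.64 with it. With pA AMO they were 6.83 and 7.23 without PDGF-AA and 6.48 and 6.67 with it. On 5'ss AMO arrays they were 6.79 and 7.19 without PDGF-AA and 6.80 and 7.11 with it. The arrays with and without PDGF-AA did not overlap with control or pA AMO and covered almost the same span with 5'ss AMO. The group means went from 7.28 ± 0.18 (SD, n = 2) to 6.50 ± 0.20 with control AMO and from 7.03 ± 0.28 to 6.58 ± 0.13 with pA AMO. Under 5'ss AMO the means were 6.99 ± 0.29 and 6.96 ± 0.22. In the order of the 6 means only 1 pair of neighbours was free of overlap between arrays, 5'ss AMO with PDGF-AA above pA AMO with PDGF-AA. For Kng2 too 4 of 5 such pairs overlapped. The share over all clusters was not counted, so nothing is read from overlaps of neighbours here or below.

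Agt, the angiotensin precursor, ran much like Kng1. With control AMO its log2 values in replicates 1 and 2 were 7.88 and 8.21 without PDGF-AA and 7.22 and 7.62 with it. With pA AMO they were 7.84 and 8.01 without PDGF-AA and 7.21 and 7.68 with it. On 5'ss AMO arrays they were 7.66 and 8.10 without PDGF-AA and 7.89 and 8.19 with it. Agt was thus lower in both replicates with control and pA AMO and higher in both with 5'ss AMO. The means were 8.04 ± 0.23 (SD, n = 2) and 7.42 ± 0.29 with control AMO and 7.93 ± 0.12 and 7.44 ± 0.33 with pA AMO. Under 5'ss AMO the means were 7.88 ± 0.32 and 8.04 ± 0.21. Every pair of neighbours in the order of the 6 means overlapped.

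Enpep, which acts on angiotensin II, was less even between replicates. Its PDGF-AA difference in replicates 1 and 2 was -0.74 and -0.20 with control AMO, -0.31 and -0.28 with pA AMO, while 5'ss AMO gave 0.19 and -0.35. Its lowest array was pA AMO with PDGF-AA replicate 1, at 7.87, and its highest 5'ss AMO without PDGF-AA replicate 2, at 9.02. Arrays of every pair of neighbouring groups overlapped.

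**Figure D3:**
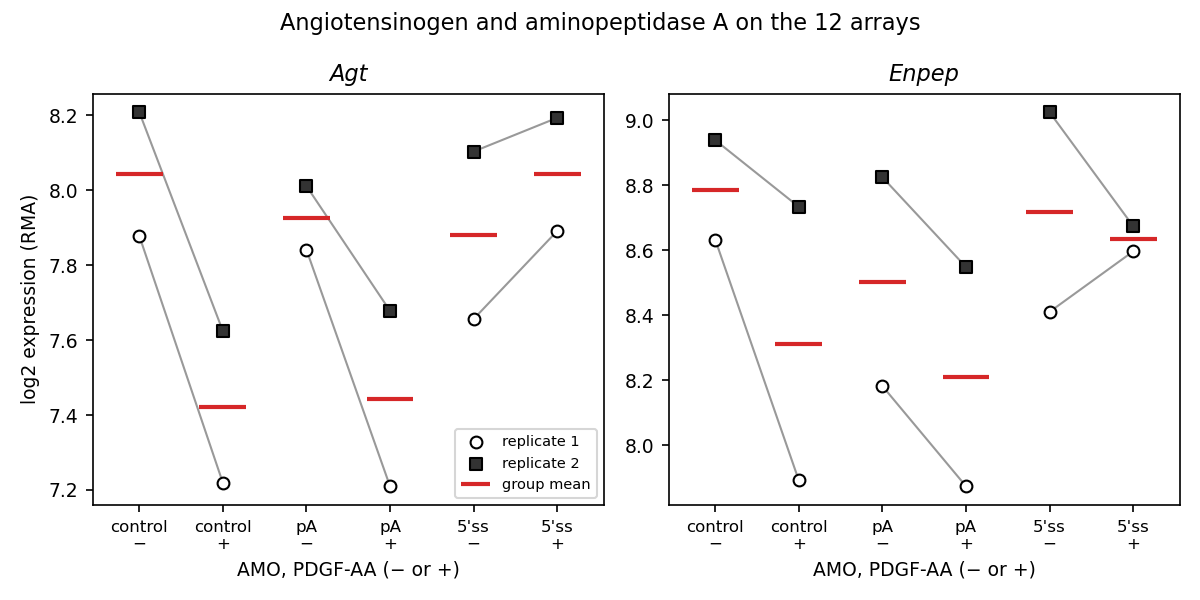
Log2 expression of Agt and Enpep (vertical axes, separate scales) in the 6 groups, drawn as for the kininogens: circles replicate 1, squares replicate 2, red bars group means, grey lines within 1 AMO and replicate number. Agt is lower with PDGF-AA along both lines under control and pA AMO and higher along both under 5'ss AMO, by 0.24 and 0.09.

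The averaged PDGF-AA change over the 3 AMOs was -0.42 for Kng1 (SE 0.109), -0.31 for Agt (SE 0.125) and -0.28 for Enpep (SE 0.189), and between -0.071 and 0.033 for the other 5 genes, in 6 arrays against 6. For this comparison limma passed 0 clusters (0%) without the replicate block. With control AMO alone the changes were -0.78 for Kng1, -0.62 for Agt and -0.47 for Enpep. For pA AMO they were -0.45, -0.48 and -0.29 in the same order, and for 5'ss AMO -0.034, 0.16 and -0.082. Kng1 and Agt were the genes among the 8 that were lower with no overlap with control AMO, where 13.6% of clusters were lower and 31% free of overlap either way, and likewise with pA AMO, where 12.3% were lower and 11.4% higher. Under 5'ss AMO the genes lower with no overlap were Bdkrb1 and Bdkrb2, where 10.5% of clusters were lower, 9.13% higher and 19.6% free of overlap either way. Since these values led to the choice of genes, nothing is read from those counts.

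**Figure D4:**
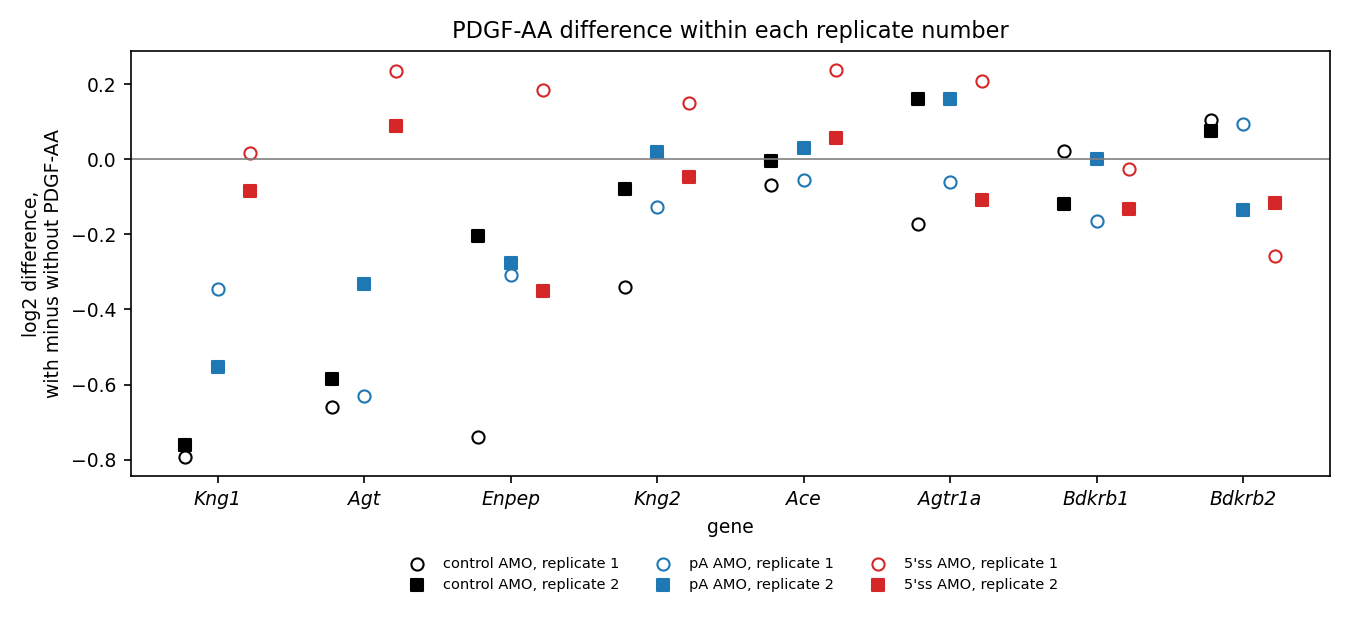
Log2 difference with minus without PDGF-AA for each of the 8 genes (horizontal axis) within each AMO (colour) and replicate number (open circles 1, filled squares 2). Kng1 and Agt are below 0 in all 4 pairs with control or pA AMO and lie between -0.08 and 0.24 with 5'ss AMO.

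How the PDGF-AA change differed between AMOs was described by the difference of the changes. Kng1 was chosen by its averaged PDGF-AA change, and its difference rests on the same arrays and the same estimate of its spread. The p-values and ranks of Kng1 here are therefore not independent of that choice. Those of Agt are not independent of it either, since its values ran with those of Kng1 on the same arrays (Pearson r 0.92). Under 5'ss AMO the change was above the one under control AMO by 0.78 for Agt (SE 0.306, 95% interval 0.10 to 1.46) and by 0.74 for Kng1 (SE 0.268, 95% interval 0.15 to 1.34). Only 50 of 21789 clusters had a higher value than Agt and 63 than Kng1. Neither passed (adjusted p = 1.0 in limma, and 0.464 with the replicate block), and over the alternatives run the adjusted p in limma lay between 0.214 and 1.0. In this comparison 0 clusters passed (0%) with or without the block, 643 had an unadjusted p under 0.05 without it and 1731 with it. With the block the p of Kng1 was the third and that of Agt the fifth smallest of all clusters. For Enpep the difference was 0.39 (SE 0.464). The remaining 5 genes lay between -0.28 for Bdkrb2 and 0.26 for Kng2. Part of the difference for Kng1 lay in its level before PDGF-AA. Its 5'ss minus control difference in replicates 1 and 2 was -0.36 and -0.21 without PDGF-AA and 0.45 and 0.47 with it. For Agt the same difference was -0.22 and -0.11 without PDGF-AA and 0.67 and 0.57 with it. A lower level without PDGF-AA was not particular to 5'ss AMO, since the pA minus control difference of Kng1 was -0.32 and -0.18 there. These comparisons share the arrays with control AMO or with 5'ss AMO.

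Between pA and 5'ss AMO the difference in PDGF-AA change was -0.65 for Agt (SE 0.306) and -0.42 for Kng1 (SE 0.268), and between pA and control AMO it was 0.14 and 0.33. None of the 8 genes passed in either (0% of clusters called in both, with and without the block). Unadjusted p under 0.05 was reached by 418 clusters for the first and 564 for the second.

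Across the 12 arrays the log2 values of Kng1, Agt and Enpep ran together. Pearson r was 0.92 for Kng1 and Agt, 0.85 for Agt and Enpep and 0.82 for Kng1 and Enpep. With the mean of each replicate number subtracted, r was 0.90, 0.79 and 0.77. These are descriptions over arrays that share treatments and replicate effects. Among 12488 clusters above the 40 percent mark, those with values most like Kng1 were Best1 (r = 0.937), Slc5a3 (0.937), C2 (0.935), Cspp1 (0.929) and Fas (0.928). Slc5a3 carries myo-inositol into cells, C2 is a complement protease and Fas a death receptor. Those most like Agt were Fah (r = 0.975), a tyrosine-degrading enzyme, Mme (0.960), the peptidase neprilysin, Ddx51 (0.959), the transcription factor Cebpa (0.957) and Rin2 (0.951). With the replicate means subtracted 4 of the 5 were again named for Kng1 and 2 of the 5 for Agt.

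Markers of other cells were set beside the PDGF-AA differences. The mean of the 7 measured adipocyte markers went from 6.48 to 6.01 and from 7.34 to 7.12 with PDGF-AA in replicates 1 and 2 with control AMO. It went from 6.55 to 6.21 and from 7.09 to 7.002 with pA AMO. Under 5'ss AMO it went from 6.37 to 7.98 and from 7.15 to 6.95. Its direction was that of Kng1 and of Enpep in 6 of 6 pairs of arrays and that of Agt in 5 of 6. In replicate 1 with 5'ss AMO the difference of Kng1 was only 0.016, so a shared direction there says little. The share of all clusters with such directions was not counted. The mean of the 10 smooth muscle and pericyte markers was 6.65 to 6.73 without and 6.50 to 6.53 with PDGF-AA under control AMO. It was 6.66 to 6.79 and 6.59 to 6.63 under pA AMO, and 6.68 to 6.81 and 6.70 to 6.74 under 5'ss AMO. The mean of the 8 leukocyte markers was lower with PDGF-AA in 6 of 6 pairs, from 5.92 to 6.08 without and 5.78 to 6.00 with it, the direction of Kng1 and Enpep in 5 pairs and of Agt in 4. The mean of the 9 measured myogenic markers, 6.68 to 7.71 over all arrays, had the direction of Kng1 and Enpep in 5 of 6 pairs and of Agt in 4. Smooth muscle and pericyte markers had that of Agt in 5 pairs and of Kng1 and Enpep in 4. Endothelial, mast cell and hepatocyte markers had that of each of these genes in 1 to 4 of 6. Acta2 is also a gene of activated fibroblasts, and the pericyte marker Rgs5 lay at a mean of 4.93. The part of these cells in the results was not tested. In bulk cultures fewer cells of a type and less RNA per cell cannot be told apart.

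Ace and the 3 receptors varied less between groups, and none passed in any comparison tested. Ace lay between 11.31 and 11.82 on the 12 arrays, a range of 0.51, where the step between replicates was 0.32 on average. With 5'ss AMO and PDGF-AA its replicates were close together, at 11.55 and 11.61, and in the other 5 groups they were further apart. This was not particular to Ace, since Agtr1a, at 8.43 and 8.46, and Enpep, at 8.60 and 8.67, also had their closest replicates in that group. Agt, at 7.89 and 8.19, and Kng2, at 8.37 and 8.61, kept a wider step there. Agtr1a lay between 8.22 and 8.92. Its means were highest with pA AMO, at 8.63 ± 0.18 (SD, n = 2) without and 8.69 ± 0.34 with PDGF-AA, against 8.49 ± 0.14 and 8.48 ± 0.38 with control AMO. Within both replicate numbers and at both doses Agtr1a was higher with pA than with control AMO, by 0.12 to 0.23, and the averaged difference of 0.17 (SE 0.147, 95% interval -0.15 to 0.50) did not pass (adjusted p = 1.0 in limma).

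Bdkrb1 lay between 6.46 and 6.95 and Bdkrb2 between 6.29 and 6.80. Bdkrb1 was at 0.16 with pA against control AMO (SE 0.0885) and Bdkrb2 at -0.14 (SE 0.102). Replicate 1 was the higher in 5 of 6 groups for each receptor, opposite to the other 6 genes. For Ace, Agtr1a, Bdkrb1 and Bdkrb2 all pairs of neighbouring groups in the order of means overlapped, a count without a share over all clusters to set beside it. Kng2 passed in none of the 3 AMO comparisons in the limma fit without the block. With the block it passed for 5'ss against control AMO and for pA against 5'ss AMO, but not for pA against control AMO. The others of the 8 genes passed in none of the 3, with or without the block. Their changes ran from -0.32 to 0.24, with adjusted p of at least 0.995 in limma, and at least 0.241 with the block.

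**Figure D5:**
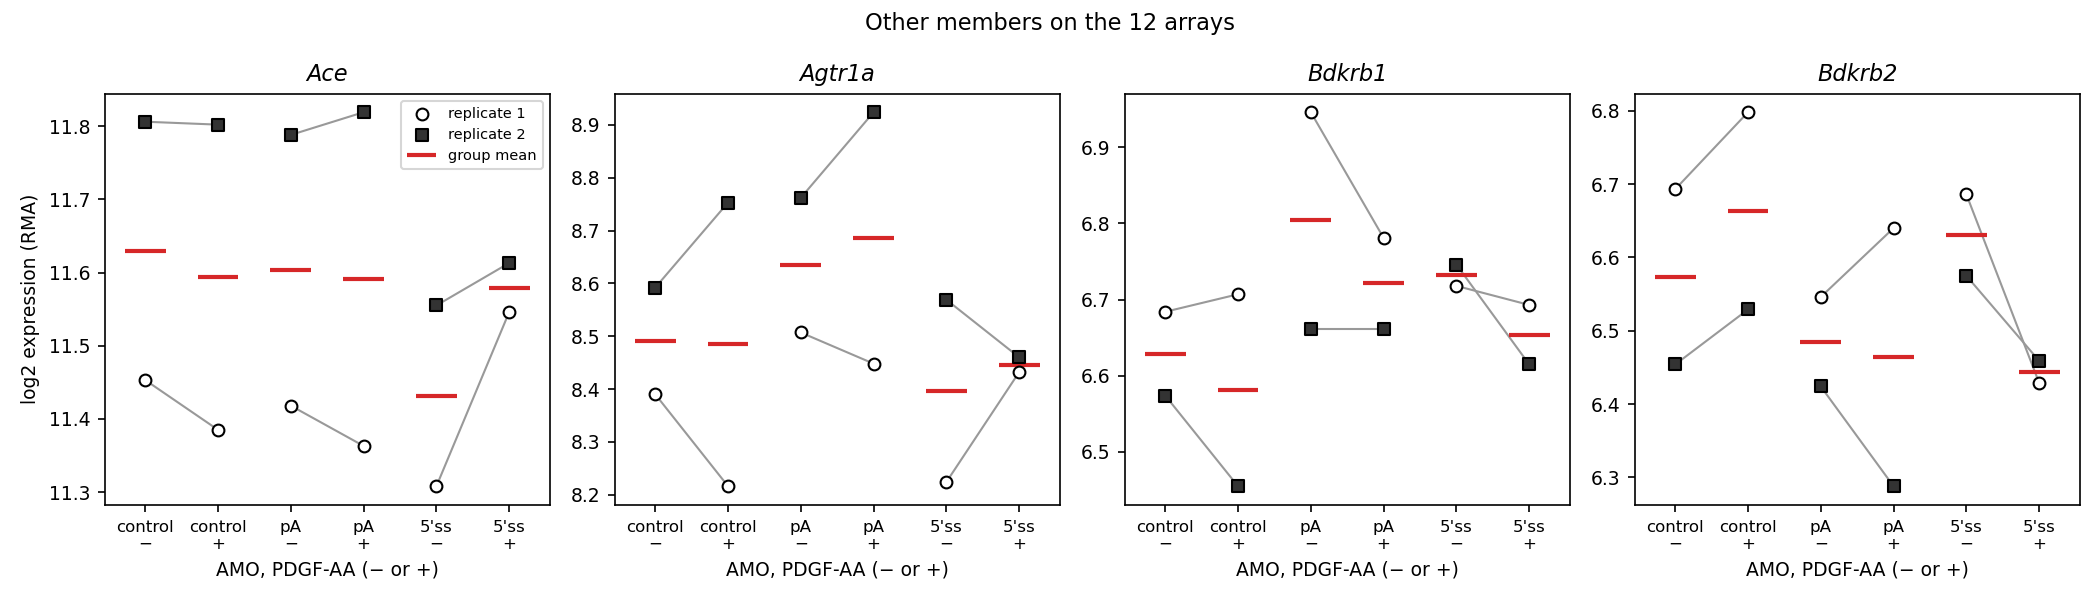
Log2 expression of Ace, Agtr1a, Bdkrb1 and Bdkrb2 (vertical axes, separate scales) in the 6 groups; circles are replicate 1, squares replicate 2, red bars group means, grey lines join arrays of 1 replicate number within an AMO. For all 4 genes the arrays of neighbouring groups, in the order of their means, overlap. The share of all clusters with such overlap was not counted.

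Other genes of both systems were followed from lists of 24 angiotensin pathway and 20 kinin pathway genes, of which 19 and 17 were measured. In limma 0 list genes passed in any of the 10 comparisons, with or without the block. Of all 21789 clusters 0 (0%) passed without the block and at most 21 (0.0964%) with it, so nothing is read from that count. In single comparisons 0 to 3 genes of a list had an unadjusted p under 0.05 without the block, where 1.64% to 4.81% of all clusters did, and 0 to 5 with it, where 4.53% to 12.7% did. The highest counts, 3 and 5 of the 17 kinin genes without and with the block, were for PDGF-AA with control AMO. Over all clusters the highest shares, 4.81% and 12.7%, were in that comparison too. The shares of the kinin list lay above these, and no test of a list as a set was run. For 5'ss against control AMO the median change was -0.014 for the angiotensin list and -0.0050 for the kinin list, beside -0.0080 over all clusters. For averaged PDGF-AA the medians were 0.0050 and 0.025, beside 0.0010 over all clusters.

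Of the peptidases, Anpep, the aminopeptidase N that trims angiotensin III, had the smallest p of the angiotensin list without the block for 5'ss against control AMO and for pA against 5'ss AMO. It was at 0.23 with 5'ss against control AMO (SE 0.0854, adjusted p = 0.995 in limma) and at -0.32 with pA against 5'ss AMO (SE 0.0854, adjusted p = 1.0 in limma). With the block the smallest p in both comparisons was that of Mme, which cleaves bradykinin and angiotensin I and stands in both lists. Mme was at 0.45 with 5'ss against control AMO (SE 0.216, adjusted p = 0.995 in limma, and 0.148 with the block). With pA against 5'ss AMO it was at -0.46 (adjusted p = 1.0 in limma, and 0.214 with the block). Mme went with PDGF-AA from 10.14 to 9.30 and from 10.60 to 10.04 in replicates 1 and 2 with control AMO, and from 10.21 to 10.37 and from 10.63 to 10.68 with 5'ss AMO. Its PDGF-AA change was higher under 5'ss than under control AMO by 0.80 (SE 0.432, adjusted p = 1.0 in limma, and 0.467 with the block). Xpnpep2, an aminopeptidase that degrades bradykinin, went the other way, with a difference of -0.57 (SE 0.213, adjusted p = 1.0 in limma). Between pA and 5'ss AMO it differed by 0.23 in level and by 0.60 in PDGF-AA change. Its values with PDGF-AA were 6.53 and 6.64 with control AMO, 6.58 and 6.64 with pA AMO, and 5'ss AMO gave 5.85 and 6.31. Dpp4, a peptidase and a marker of fibroblast progenitors, was at -0.45 with 5'ss against control AMO (SE 0.192, adjusted p = 0.995 in limma).

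The other list genes with the smallest p without the block lay closer to 0 or were dim. Between pA and control AMO these were the endopeptidase Thop1 at -0.15 and the integrin subunit Itgam at -0.15. For the difference in PDGF-AA change between pA and control AMO they were the protease Ctsg at -0.26 and the urokinase receptor Plaur at -0.29. The mast cell chymase Cma1, which also makes angiotensin II, differed by 0.39 between the PDGF-AA changes with 5'ss and control AMO and by -0.37 between those with pA and 5'ss AMO. Its mean of 4.72 lay below the 40 percent mark, as did all 6 mast cell markers. None of these passed.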

How the data were processed

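The authors deposited log2 expression values of 12 Affymetrix arrays, for which the submitters' processing notes name RMA and Affymetrix Expression Console without versions. RMA corrects background, quantile-normalizes and summarises probes, and these steps were not redone. Precision is limited by the number of arrays. Of 35556 clusters, 21789 have 1 platform symbol, 1621 several and 12146 none listed here; 21698 matched RefSeq names of GRCm38.p6 by gene identifier. A means model of 6 groups was fitted to all arrays with limma 3.58.1 in R 4.3.3 (6 residual degrees of freedom), with Benjamini-Hochberg adjustment over the 21789 clusters. The fit without the block was checked on simulated data that held no replicate effects, so that check does not bear on the block. The replicate numbers pair the samples by a hint from the data: the correlation of deviations between same-numbered arrays was 0.20 to 0.61 over 15 pairs of groups. Alternatives were the replicate block, a dim filter, all clusters, median centring, repeated quantile normalization, trend with robust moderation, and leaving out each array; block fits without each array were added after seeing the data. Named genes were the 8 members, list genes past the threshold or otherwise with the smallest p, without the block, of each list per AMO comparison or difference, and the 5 clusters most like Kng1 and Agt, leaving out predicted genes, small RNAs and olfactory or vomeronasal receptors. Mme was also followed because it stands in both lists and among those 5. Members and lists were chosen with earlier results of these data known.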

Additional observations from a re-analysis of the deposited data

How the results depend on the processing

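Counts of clusters past the threshold were 0 for all 10 comparisons in limma. With the replicate block they were 21 for averaged PDGF-AA, 3 for 5'ss against control AMO and 6 for pA against 5'ss AMO. With trend and robust moderation they were 39, 7 and 2 for the same comparisons and 13 for PDGF-AA with control AMO. Kng2 was then among the 7 (adjusted p = 0.0262 in limma) but not among the 2 for pA against 5'ss AMO (0.0702). Kng1 was among the 21 but not among the 39. Leaving out single arrays gave 0 to 1 for 5'ss against control AMO, where the 1 was Arxes2, without either pA AMO array that had no PDGF-AA. The pathway lists kept 0 under every setting run. The limma fit without the block called none of the 8 genes, so there was no called change that another setting could reverse. Without single arrays the change of Kng2 with 5'ss AMO was -1.37 to -1.15 without the block and -1.32 to -1.20 with it. With 2 arrays a group the spread is estimated over all groups, and values of Kng1 and Kng2 depend on probes of near-identical genes.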
